A study of Homo sapiens with 6 samples.

Results

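The type I interferon stimulated genes described here are 36 named genes, the effectors of the antiviral state and the transcription factors that switch them on, out of 24789 genes and loci measured in LX-2 cells. They are well known members of the pathway, picked by gene symbol with earlier results of these data known, and the table held 1 row for each of them. LX-2 is a human stellate cell line, derived from the perivascular liver cells that deposit scar matrix after injury. They received 50 nM of a lipid-delivered siRNA, scrambled or directed against AEBP1, and were collected 48 hours later, with 3 libraries per group. The labels give the first as wild type and the second as AEBP1 knockdown. Both groups share the cell line, the medium with bovine serum, the lipid reagent and a double-stranded siRNA, and no library of cells without siRNA was analysed here. The labels do not say whether the 3 libraries of a group came from separate transfections, so p-values measure only the spread between these libraries, which may be technical.

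Type I interferons are secreted proteins that cells make when they sense foreign nucleic acid. They bind the receptor pair IFNAR1 and IFNAR2, whose kinases JAK1 and TYK2 phosphorylate STAT2 and related proteins. These join IRF9 to form the factor ISGF3, which binds the interferon-stimulated response element in the promoters of its targets. The products block viral entry, translation, budding and genome copying, and some of them feed back on the pathway. Most cells also keep a low level of these genes without added interferon.

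The response element is the sequence that ISGF3 binds, so windows that hold it are shown for some of the members described below. Its core was searched as GAAANNGAAA on both strands, where N is any base, and overlapping matches were counted. The windows ran from 250 bases before to 50 bases after each RefSeq transcript start in GRCh38.p14, a newer build than the hg19 of the deposited table, and were used for their sequence alone. Of the 36 members, 28 had at least 1 window and 19 of these 28 (67.9%) held a core, against 4.38% of all 27305 genes with a window. By window, 23 of 38 member windows (60.5%) held it, against 3.57% of all 35116 windows. At least 2 matches were held by 14 member windows, and by 0.259% of all windows. The stretches below read 5′ to 3′ along the gene, with the matched cores in capitals.
IFITM3, chr11:320871-320927, minus strand: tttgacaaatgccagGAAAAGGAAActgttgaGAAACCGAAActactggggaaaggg
ISG15, chr1:1013369-1013414, plus strand: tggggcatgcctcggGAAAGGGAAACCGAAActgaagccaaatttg
IFI6, chr1:27672261-27672322, minus strand: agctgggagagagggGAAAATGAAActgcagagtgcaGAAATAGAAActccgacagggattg
BST2, chr19:17405730-17405775, minus strand: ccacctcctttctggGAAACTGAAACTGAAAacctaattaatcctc
OAS3, chr12:112938447-112938473, plus strand: cggagagccgggcggGAAAACGAAAcc
IFIT3, chr10:89327826-89327899, plus strand: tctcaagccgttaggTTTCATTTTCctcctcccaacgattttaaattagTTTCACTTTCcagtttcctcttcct
IFIT1, chr10:89392492-89392544, plus strand: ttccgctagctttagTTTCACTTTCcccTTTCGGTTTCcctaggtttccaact
SAMD9, chr7:93118091-93118130, minus strand: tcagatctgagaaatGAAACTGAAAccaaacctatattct

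In ISG15 and BST2 a pair of cores overlapped in a single run, 113 and 130 bases before the start. IFIT1 and IFIT3 carried theirs in the reverse orientation. In OAS3 the printed core lay 12 bases before the start, and the printed stretch stops at the start. IRF1 held no such core and instead held 1 match to TTCNNNGAA, the core of the gamma-activated site. That core was present in 9 of 38 member windows (23.7%) and in 7.66% of all windows. OAS1, IRF9 and IFI35 likewise held it without a core of the response element. STAT2, SAMD9L, HERC6, XAF1 and CMPK2 held neither core in their windows. Only exact matches were counted, so an element with another spacing or a mismatch would be missed. A window without a match, as for OAS1, may still hold a response element. The IRF1 stretch is shown for contrast.
IRF1, chr5:132490874-132490912, minus strand: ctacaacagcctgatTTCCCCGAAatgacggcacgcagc

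The libraries held 34433510 to 49432960 counts each, and levels between libraries are given as CPM (counts per 1000000), with library sizes scaled by the trimmed mean of M values. A floor of 3 counts corresponds to between 0.0607 and 0.0871 CPM when unscaled library totals are used, and covers counting error only. AEBP1, the target of the siRNA, was at 53.6, 48.7 and 25.1 CPM in the libraries called scrambled 1, 2 and 3 by their labels. It was at 29.7, 27.7 and 48.3 CPM in AEBP1 siRNA 1, 2 and 3. Libraries labelled 3 thus went against their labels. Whole profiles also paired across the labels, with the lowest chi-square per degree of freedom, 7.78, between scrambled 3 and AEBP1 siRNA 2 and the next, 9.16, between scrambled 2 and AEBP1 siRNA 3. Which siRNA these libraries received was not tested beyond these values, and this limits every labelled difference below. Every direction below is for libraries as labelled, and triplets of values are in the order of replicates 1, 2 and 3 (AEBP1 log2 fold change -0.27, edgeR adjusted p = 0.991). AEBP1 siRNA 1 lay far from the rest on the first principal component (46.1, where the other 5 lay between -12.4 and -1.83). Of 23 stellate cell markers listed, only 14 had a mean of at least 5 CPM. Among these, COL1A1 (mean 1513 CPM), VIM (1168 CPM) and SPARC (594 CPM) were abundant. LRAT, the retinoid enzyme of quiescent stellate cells, was at 0 in all 6 libraries. Of markers of other cells, hepatocyte APOB, TTR and FGB, CLEC4C of leukocytes, LYVE1 and CLEC4G of endothelium and CFTR of cholangiocytes were at 0 throughout. The most abundant genes of those lists were SERPINA1 (mean 6.64 CPM), CD68 (20.7 CPM), FLT1 (63.2 CPM) and KRT18 (167 CPM).

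Of the 36 members, 31 had a mean of at least 5 CPM, and each of these 31 was detected in all 6 libraries. Ordered by deposited FPKM, which divides by transcript length and so allows genes to be compared, IFITM3 stood first. This transmembrane protein, which blocks virus entry at endosomes, had a mean of 153 FPKM over the 6 libraries, with a range of 135 to 199. ISG15, the ubiquitin-like modifier, followed at 102 FPKM (79.1 to 141), and its range overlapped that of IFITM3. Both lay above IRF1 at 52.3 FPKM (42.0 to 64.0) in every library. IRF1, IFI6 at 42.4 FPKM (34.3 to 58.8) and OAS3 at 36.6 FPKM (26.4 to 45.7) had overlapping ranges. Of the 34 neighbouring pairs in this order, only 4 did not overlap: ISG15 and IRF1, IFITM1 and DTX3L, IFIT1 and IFI44L, and OASL and RSAD2. IFI44L and OASL, at 0.717 and 0.716 FPKM, were the lowest members that passed the filter on low counts.

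**Figure D1:**
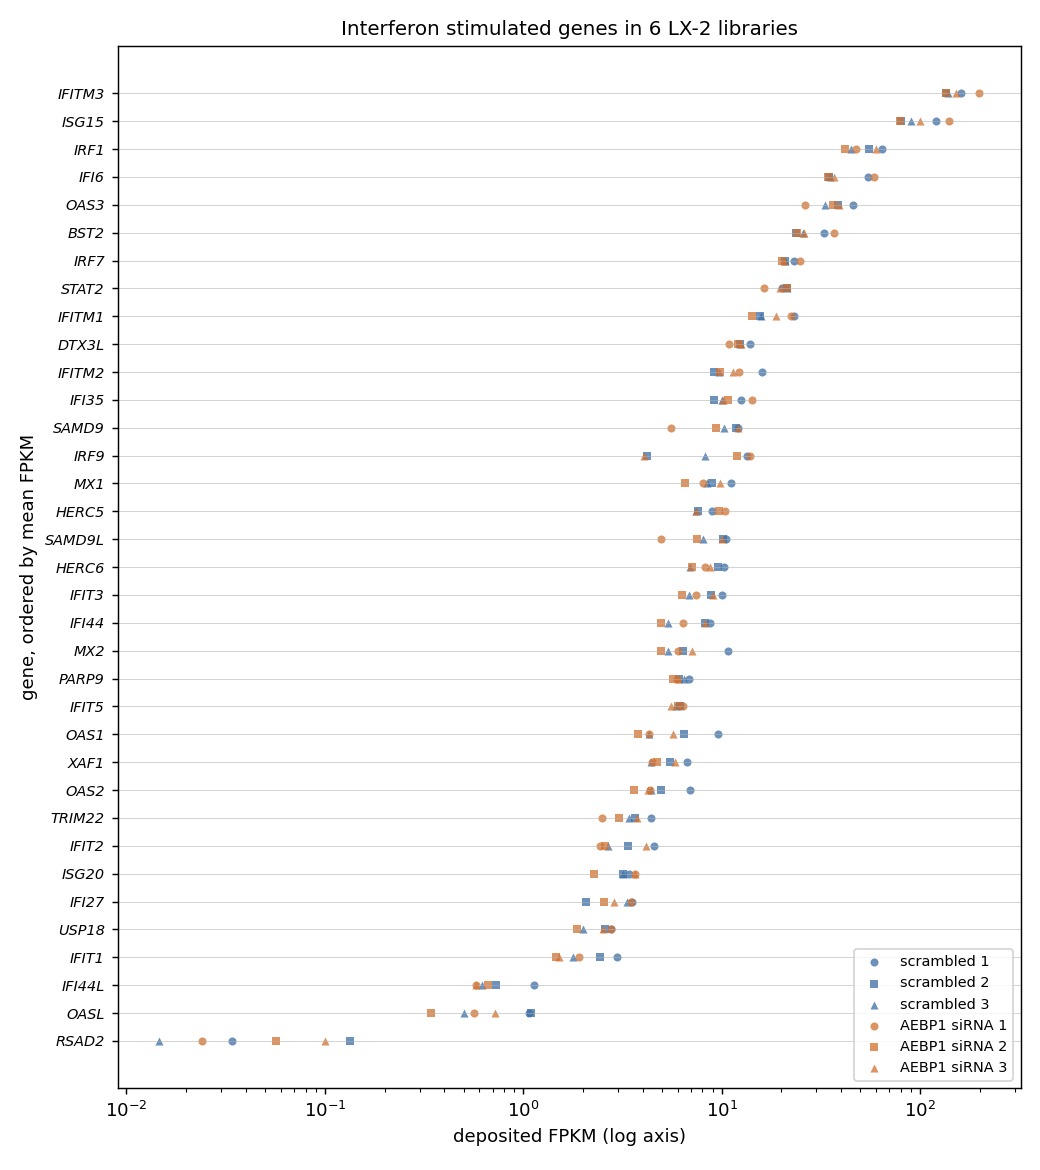
Deposited FPKM (log axis) of the 35 members with counts, 1 point per library, ordered by mean; blue marks libraries labelled scrambled, orange those labelled AEBP1 siRNA, and symbols the replicate number. Levels ran from 153 FPKM for IFITM3 to 0.0604 FPKM for RSAD2, and the colours were mixed for nearly every gene.

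A pair of well known members was nearly silent. RSAD2, which encodes viperin, an enzyme that makes a chain-terminating nucleotide, had 6, 27 and 3 counts under the scrambled label and 4, 9 and 12 under the AEBP1 siRNA label. CMPK2, the nucleotide kinase encoded head to head with RSAD2, was listed at 0 counts in all 6 libraries. By the unscaled library total, this allows at most 0.0871 CPM in the shallowest. Both failed the filter on low counts, which left 34 members tested. IFI27, a mitochondrial and nuclear membrane protein that is strongly inducible in many tissues, was tested but low, between 1.69 and 2.85 CPM.

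Between the labelled groups 0 of the 34 members passed the threshold of an adjusted p under 0.05 by edgeR, where 0.00615% of all 16250 genes tested did. DESeq2 and limma-voom also called 0 members, where they called 0.0369% and 0.0123% of all genes. At an unadjusted p under 0.05 edgeR had 1 member, OAS2, which was lower under the AEBP1 siRNA label. Of all genes 1.33% passed that p, and 0.597% passed it and were lower. At that p DESeq2 had 2 members, both lower, where 0.591% of all genes were lower, and limma-voom had 0, where 1.49% of all genes passed. Estimates were below 0 for 23 of 34 members, where 50.6% of all genes tested were, and the median log2 fold change was -0.15 against -0.0023 over all genes. Groups did not overlap for 1 of 34 members (2.94%), again OAS2. Of all genes 5.93% did not overlap and 2.9% were lower without overlap, a share near that of the members. The median rested on single libraries: it was -0.051 without scrambled 1 and -0.071 without AEBP1 siRNA 2.

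The OAS enzymes, which sense double-stranded RNA and make short oligoadenylates, had the lowest median of any group of roles, at -0.50 over 4 genes. Without scrambled 1 the log2 fold changes of OAS1, OAS2 and OAS3 were -0.24, -0.23 and -0.090. OAS2 was at 32.4, 24.3 and 21.1 CPM under the scrambled label and 20.9, 16.7 and 20.5 CPM under the AEBP1 siRNA label. The groups were separate, but scrambled 3 lay close to AEBP1 siRNA 1. It averaged 25.9 CPM ± 5.85 (SD, n = 3) in the first group and 19.4 CPM ± 2.30 (SD, n = 3) in the second, with a log2 fold change of -0.42 (SE 0.179, 95% interval -0.83 to -0.01, edgeR adjusted p = 0.991). The exact two-sided permutation test gave p = 0.1 for OAS2, the smallest possible with 3 against 3. OAS1, the small soluble member of the family, was at 17.8, 11.8 and 8.05 CPM under the scrambled label and 8.05, 6.65 and 10.5 CPM in the others. Scrambled 1 was the high library here, and scrambled 3 lay at the level of AEBP1 siRNA 1. Its log2 fold change of -0.58 had a 95% interval of -1.26 to 0.10 (edgeR adjusted p = 0.991).

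OAS3, the largest of the family, was the most abundant of them, at 339, 287 and 247 CPM and at 190.0, 267 and 295 CPM in the same order. AEBP1 siRNA 3 was above scrambled 2 and 3, and AEBP1 siRNA 1 was the lowest. OASL, an enzymatically inactive relative that binds the RNA sensor RIG-I, was at 3.24, 4.02 and 1.85 CPM and at 1.87, 1.22 and 2.71 CPM.

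Of the IFIT proteins, IFIT1 binds viral RNA that lacks the host cap methylation and hinders its translation. Estimates were lower for 4 of 4 IFIT genes (median -0.23). IFIT1 was at 7.50, 6.28 and 4.56 CPM under the scrambled label and at 5.35, 3.88 and 5.45 CPM under the AEBP1 siRNA label. IFIT2 was at 16.4, 12.6 and 10.3 CPM and at 8.72, 8.77 and 14.7 CPM. IFIT3, which stabilises IFIT1, was at 28.5, 24.7 and 19.3 CPM and at 20.6, 17.5 and 25.7 CPM. In all 3 genes scrambled 1 was the highest library, and AEBP1 siRNA 3 exceeded scrambled 3. IFIT5 differed in pattern, at 28.0, 28.0 and 26.7 CPM and at 28.7, 26.8 and 25.4 CPM, and its highest library was only 1.13 times its lowest. LIPA, a lysosomal lipase gene, overlaps IFIT1, IFIT2 and IFIT3 on the other strand in GENCODE 29. No source used here gives the strand setting of the counts, so the assignment of reads from sequence shared with LIPA is uncertain. How much sequence is shared was not measured. LIPA itself was at 32.7, 29.2 and 33.4 CPM and at 35.0, 35.0 and 29.9 CPM.

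MX1 and MX2 are dynamin-like GTPases that trap viral nucleocapsids. MX1 was at 36.7, 31.2 and 27.7 CPM under the scrambled label and at 29.7, 24.2 and 30.8 CPM in the others. MX2 was at 36.2, 21.8 and 18.2 CPM and at 20.3, 16.3 and 24.6 CPM, so that scrambled 1 stood above every other library. The MX2 log2 fold change was -0.32 (95% interval -0.92 to 0.29, edgeR adjusted p = 0.991), and without scrambled 1 it was 0.028.

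The transmembrane restriction factors did not show the lower estimates of the OAS and IFIT genes, and 4 of 4 had estimates above 0 (median 0.04). IFITM3 was at 146, 123 and 126 CPM under the scrambled label and at 179, 121 and 139 CPM under the AEBP1 siRNA label. Its group means of 132 CPM ± 12.9 (SD, n = 3) and 146 CPM ± 29.4 (SD, n = 3) differed by less than the spread, with a log2 fold change of 0.15 (95% interval -0.20 to 0.50, edgeR adjusted p = 0.991). BST2, or tetherin, which holds budding virions at the cell surface, was at 37.8, 27.2 and 29.3 CPM and at 41.7, 27.0 and 30.1 CPM. For both genes AEBP1 siRNA 1 was the highest library and AEBP1 siRNA 2 the lowest. IFITM1, the family member at the plasma membrane, was at 22.4, 15.1 and 15.2 CPM and at 21.3, 13.5 and 18.3 CPM. IFITM2 was at 13.4, 9.24 and 8.31 CPM and at 11.4, 8.64 and 11.1 CPM. IFITM1 and IFITM2 are close copies that overlap in GENCODE 29, so the split of reads between them is uncertain. Their sum of 22.2 to 35.7 CPM had the same highest library, scrambled 1, as each of them. Reads shared with IFITM3, the most abundant of the 4 genes, were not examined. Without AEBP1 siRNA 1 the estimates of IFITM3, BST2, IFITM1 and IFITM2 were all below 0, at -0.016, -0.139, -0.138 and -0.060.

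ISG15 is joined to other proteins by ligases that include HERC5, and USP18 removes it and also blocks the receptor. ISG15 was at 88.0, 57.9 and 65.0 CPM under the scrambled label and at 101, 56.8 and 72.7 CPM under the AEBP1 siRNA label. High and low libraries occurred in each group, with means of 70.3 CPM ± 15.7 (SD, n = 3) and 76.7 CPM ± 22.2 (SD, n = 3). The log2 fold change was 0.12 (95% interval -0.39 to 0.64, edgeR adjusted p = 0.991). USP18 was at 6.72, 6.22 and 4.81 CPM and at 6.53, 4.41 and 6.13 CPM. HERC5 was at 35.5, 30.1 and 29.2 CPM and at 40.6, 37.7 and 29.7 CPM, with AEBP1 siRNA 1 and 2 the highest libraries. HERC6, its neighbour in the genome, was at 43.7, 40.7 and 29.2 CPM and at 34.4, 29.7 and 37.7 CPM. Scrambled 3 was the lowest library for both genes. Within the AEBP1 siRNA label, replicate 3 was the highest for HERC6 and the lowest for HERC5. UBA7 and TRIM25, the activating enzyme and a second ligase of the ISG15 system, had means of 18.8 and 17.3 CPM, and 229 and 203 CPM, under the scrambled and AEBP1 siRNA labels (edgeR adjusted p = 0.991 for each).

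Among the 4 factors that drive the program, IRF7 and STAT2 varied least, with the highest library 1.25 and 1.29 times the lowest. IRF1 followed at 1.40 times, and IRF9 varied most. STAT2 was at 70.5, 73.6 and 72.5 CPM under the scrambled label and at 57.2, 72.2 and 68.9 CPM under the AEBP1 siRNA label, with AEBP1 siRNA 1 alone below the rest. IRF7, the factor that amplifies interferon production, was at 46.4, 40.3 and 41.5 CPM and at 50.4, 41.2 and 41.4 CPM. IRF1 was the most abundant of the 4, at 221, 210.4 and 159 CPM and at 187, 158 and 212 CPM. Scrambled 1 and 2 and AEBP1 siRNA 3 were its 3 highest libraries, and the group means of 197 CPM ± 33.2 and 186 CPM ± 26.8 (SD, n = 3 each) differed by less than that spread. AC116366.3, a gene that overlaps IRF1 on the other strand in GENCODE 29, took between 5.52 and 35.1 CPM.

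IRF9, the DNA-binding partner of ISGF3, had the widest range of the members above 5 CPM. It was at 22.1, 6.46 and 10.7 CPM under the scrambled label and at 18.6, 17.3 and 6.37 CPM under the AEBP1 siRNA label. Its highest library was 3.47 times its lowest, and high and low values occurred in each group (log2 fold change 0.11, 95% interval -1.04 to 1.25, edgeR adjusted p = 0.991). AL136295.5 lies on the same strand and overlaps IRF9 in GENCODE 29, and it was at 74.8, 77.8 and 78.9 CPM and at 79.7, 62.1 and 86.0 CPM. The IRF9 share of the sum of both genes ran from 6.90% to 22.8%, while the sum itself ran only from 79.4 to 98.4 CPM. The level of IRF9 alone is therefore uncertain, since no source used here gives the way reads of overlapping genes were assigned.

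**Figure D2:**
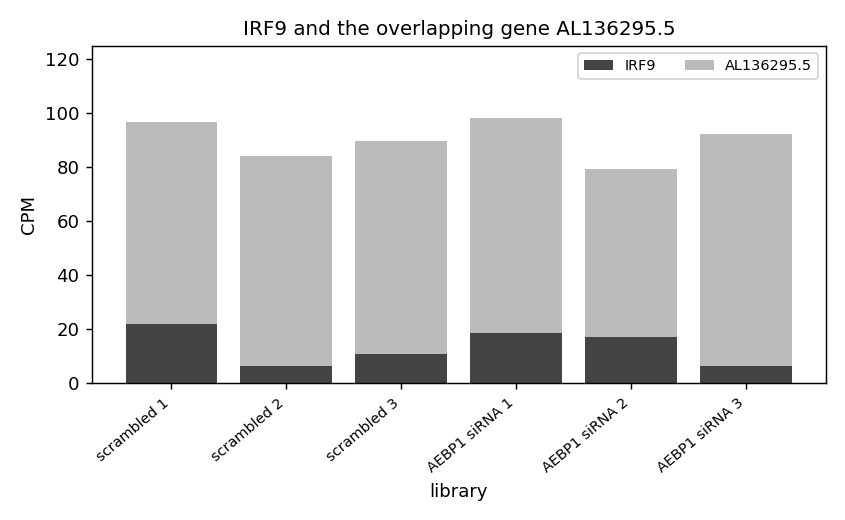
CPM of IRF9 (dark) and of the overlapping gene AL136295.5 (light) stacked for each of the 6 libraries. The stacks ran from 79.4 to 98.4 CPM, while the dark part ran from 6.37 CPM in AEBP1 siRNA 3 to 22.1 CPM in scrambled 1.

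SAMD9 and SAMD9L, neighbouring paralogues that block viral translation and restrain growth, were lowest in AEBP1 siRNA 1. SAMD9 was at 93.7, 89.4 and 78.5 CPM under the scrambled label and at 42.2, 70.4 and 93.8 CPM under the AEBP1 siRNA label. SAMD9L was at 74.9, 72.2 and 56.7 CPM and at 38.7, 51.0 and 71.2 CPM. For both genes AEBP1 siRNA 3 lay at the level of scrambled 1 or 2. Each had a log2 fold change of -0.34, with 95% intervals of -0.91 to 0.23 and -0.83 to 0.15 (edgeR adjusted p = 0.991 for each). Without AEBP1 siRNA 1 they were -0.086 for SAMD9 and -0.15 for SAMD9L. PARP9 and DTX3L, which form a complex that modifies ubiquitin and histones and share a promoter region, stayed close to their means. PARP9 was at 30.1, 25.1 and 27.0 CPM and at 23.3, 24.2 and 26.2 CPM. DTX3L was at 92.9, 81.7 and 82.0 CPM and at 71.1, 78.3 and 83.6 CPM, and PARP9 was between 23.5% and 24.8% of the sum of the pair in every library.

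Of the IFI genes, named for their induction by interferon, IFI6, a small mitochondrial and endoplasmic reticulum protein, was at 52.0, 32.8 and 33.0 CPM under the scrambled label and at 54.5, 31.8 and 35.0 CPM under the AEBP1 siRNA label. IFI35 was at 17.5, 12.7 and 14.0 CPM and at 19.6, 14.8 and 14.2 CPM. In both the first library of each group was the highest. IFI44 was at 16.4, 15.5 and 9.95 CPM and at 11.7, 8.93 and 15.3 CPM. IFI44L, a neighbouring paralogue, was at 7.57, 4.69 and 4.08 CPM and at 3.77, 4.12 and 3.88 CPM, with scrambled 1 above the other 5 libraries. Among the remaining effectors, TRIM22, a ubiquitin ligase, was at 14.9, 12.2 and 10.9 CPM and at 8.34, 9.84 and 12.7 CPM. XAF1, a proapoptotic antagonist of XIAP, was at 23.7, 20.6 and 16.3 CPM and at 15.2, 16.5 and 20.9 CPM. ISG20, a 3′ exonuclease, was at 5.53, 5.38 and 5.54 CPM and at 6.70, 4.71 and 5.86 CPM. In TRIM22 and XAF1, as in IFIT2, scrambled 1 was highest, AEBP1 siRNA 3 next and AEBP1 siRNA 1 lowest, and ISG20 was nearly level under the scrambled label.

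The members varied over the 6 libraries more by library than by label. Among the 31 members with a mean of at least 5 CPM the highest library was a median of 1.57 times the lowest, computed with 0.5 CPM added, against 1.34 times for the 11594 genes above that mean. Scrambled 1 held the highest value for 22 of the 34 tested members (64.7%), where it was the highest library for 12.6% of all genes tested, and held the lowest for 0. AEBP1 siRNA 2 held the lowest value for 16 members (47.1%), against 14.9% of all genes, and the highest for 0. Of the 34 members, 33 were above their own 6-library mean in scrambled 1, 20 in scrambled 2 and 5 in scrambled 3. In AEBP1 siRNA 1, 2 and 3 the numbers above it were 14, 4 and 23. These are descriptions of the 6 libraries, without a test.

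**Figure D3:**
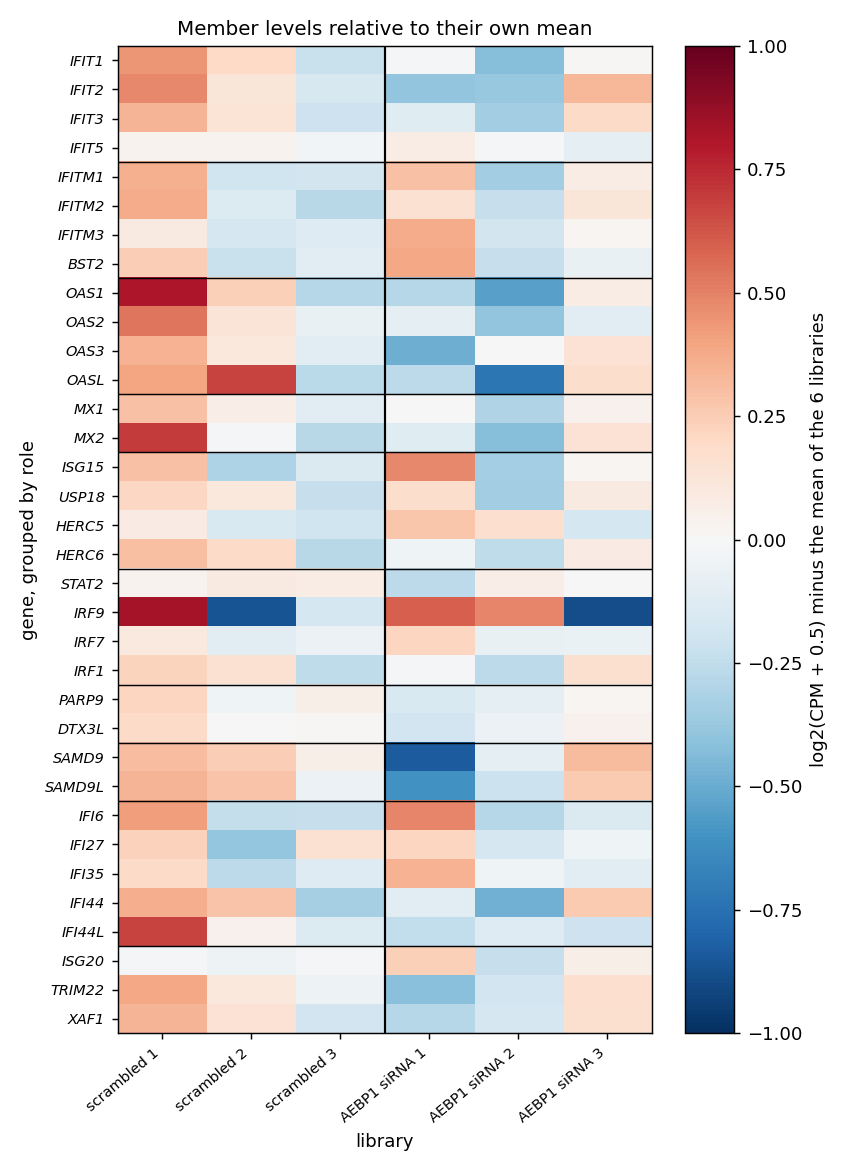
Log2(CPM + 0.5) of the 34 members tested minus the mean of the 6 libraries, grouped by role (horizontal lines), with libraries labelled scrambled on the left and AEBP1 siRNA on the right. Scrambled 1 was above the mean for 33 members and AEBP1 siRNA 2 for 4.

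Relative to the 6-library mean on the log2(CPM + 0.5) scale, the median over the 34 members was 0.32, 0.053 and -0.14 in scrambled 1, 2 and 3. It was -0.032, -0.23 and 0.054 in AEBP1 siRNA 1, 2 and 3. The median over all genes tested lay between 0.0032 and 0.0084 in every library. Scrambled 1, scrambled 2 and AEBP1 siRNA 3, the only libraries with a median above 0, were also the 3 with the highest AEBP1, between 48.3 and 53.6 CPM. AEBP1 was between 25.1 and 29.7 CPM in the other 3. Whether the members and AEBP1 are related across libraries was not tested.

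**Figure D4:**
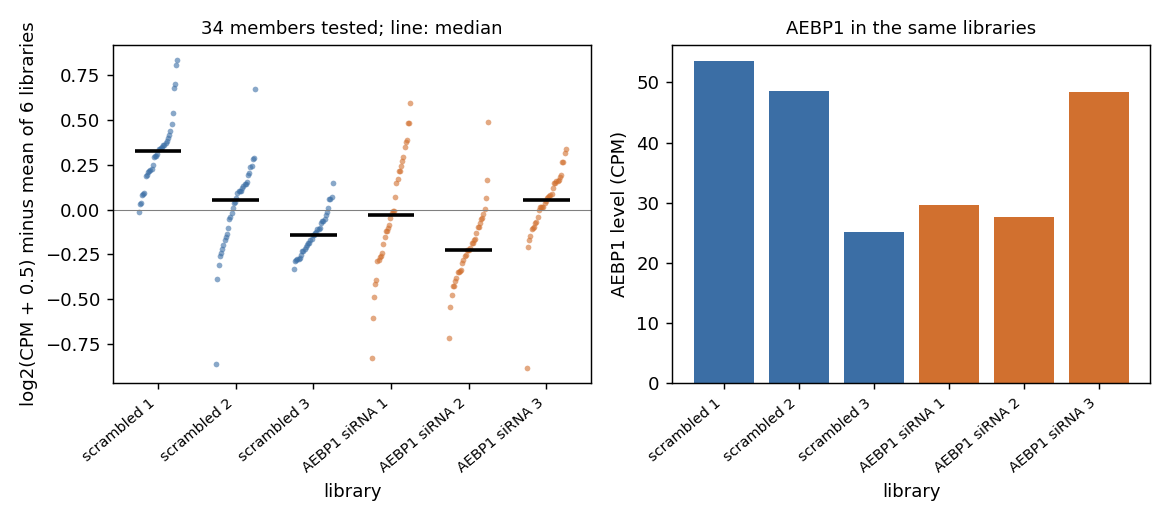
Left, log2(CPM + 0.5) minus the mean of the 6 libraries for each of the 34 members tested (points, sorted within a library) with their median (line); right, AEBP1 in CPM. The medians above 0, in scrambled 1, scrambled 2 and AEBP1 siRNA 3, sit in the 3 libraries with AEBP1 at 48.3 CPM or more.

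In AEBP1 siRNA 1 members lay on both sides of their means, as did genes in general. It was the highest library for 9 of 34 members (26.5%) and the lowest for 10 (29.4%), shares near the 32.2% and 32.6% of all genes tested. Its lowest member relative to the mean was SAMD9, at -0.83 log2 units, while IFI6 and ISG15 were above it, at 0.49 and 0.48. Members with a longest GENCODE 29 transcript of up to 3278 bases (17 genes) had a median of 0.21 there, and the 17 members with longer transcripts had a median of -0.12. Spearman's rho between transcript length and the deviation was -0.66 across the 34 members and -0.57 across 13983 genes in that library, where all points share the library and are not independent. In scrambled 1 rho across the members was -0.0096, and the shorter and the longer members had medians of 0.34 and 0.31. The other libraries had a rho between 0.19 and 0.50 across the members and between 0.20 and 0.39 across the 13983 genes. Deviations from a gene's own mean balance over the libraries, so these values are not independent of that in AEBP1 siRNA 1. The part of transcript length in the members' levels in AEBP1 siRNA 1 was not tested further.

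**Figure D5:**
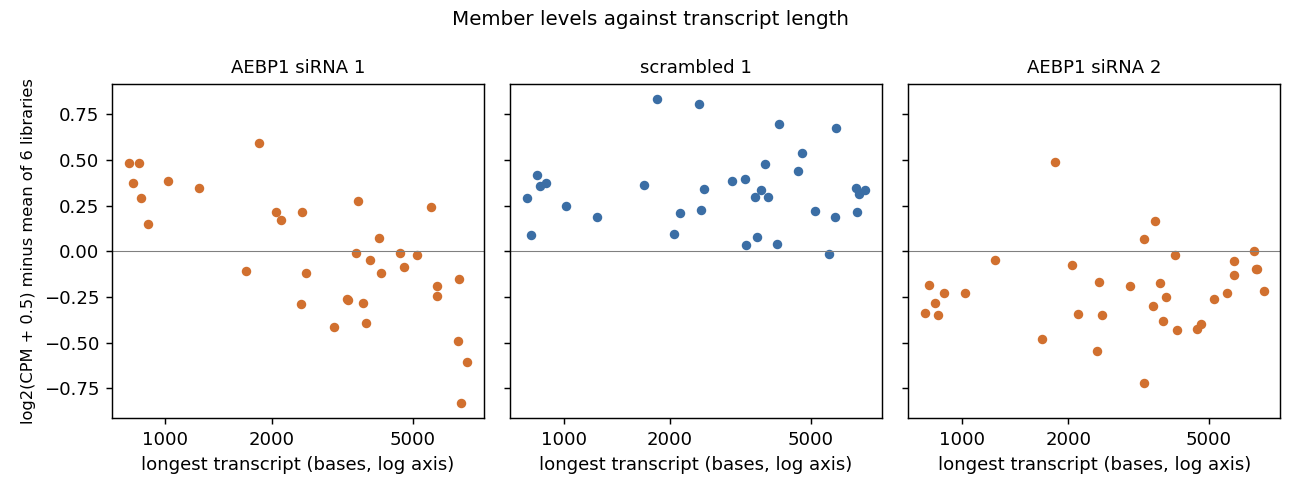
Log2(CPM + 0.5) minus the mean of the 6 libraries against the longest transcript in bases (log axis) for the 34 members tested, in AEBP1 siRNA 1, scrambled 1 and AEBP1 siRNA 2. In AEBP1 siRNA 1 the 17 shorter members have a median of 0.21 and the 17 longer ones of -0.12, with exceptions such as TRIM22 below 0 and HERC5 above it (rho -0.66), while in scrambled 1 members of every length lie above or near 0.

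When replicate 3 of both groups was left out, the libraries in which AEBP1 goes against the label, 0 members were called, where 0.00614% of all genes were. The median was -0.28 over 34 members, of which 24 had lower estimates beside 50.9% of all genes. At an unadjusted p under 0.05 there were 11 members, all lower, where 2.57% of all genes were lower. When AEBP1 siRNA 1 was removed too, estimates were lower for 32 of 35 members, beside 51.1% of all genes, and the median was -0.43. SAMD9L was then called as lower, at -0.53 (edgeR adjusted p = 0.0311), where 1.46% of 17050 genes were called and 0.809% were called as lower. Only AEBP1 siRNA 2 then represents its group, so its spread is taken from the scrambled libraries, and both choices were made with the AEBP1 levels known. Over all 6 libraries scrambled 1 was the highest for 22 of 34 members and AEBP1 siRNA 2 the lowest for 16. Keeping these libraries therefore largely fixes the direction in advance.

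Upstream of the members, the ligands were all but absent. Of 18 interferon genes listed, 13 had 0 counts in all 6 libraries, and IFNB1, the interferon most cells make first, had 2 counts in each of scrambled 2 and AEBP1 siRNA 3 and 0 in the other 4. IFNE, an epithelial interferon, was the only ligand tested, at 6 to 33 counts per library. The receptor and its kinases were well expressed, and their 95% intervals of the log2 fold change included 0. For IFNAR1 the log2 fold change was -0.15 (95% interval -0.43 to 0.13). IFNAR1 and IFNAR2 had means of 167 and 26.0 CPM under the scrambled label and 150.2 and 24.6 CPM under the AEBP1 siRNA label. JAK1 was at 304 and 287 CPM and TYK2 at 133 and 131 CPM. Of the 11 receptors, kinases and STATs tested, 0 were called, 9 had lower estimates, beside 50.6% of all genes tested, and the median was -0.083. STAT3, which carries cytokine signals of the interleukin 6 family, had a log2 fold change of 0.00075, and IFNGR1, IFNGR2, IFNLR1, IL10RB and JAK2 had values of -0.011, 0.095, -0.051, -0.15 and -0.21.

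Other interferon stimulated genes, which were listed apart from the members, had lower estimates for 42 of 53 tested, beside 50.6% of all genes tested. Their median was -0.075, with 0 called. The 3 with the smallest unadjusted p were EIF2AK2, DDX60L and IFI30. EIF2AK2, the kinase PKR that halts translation on double-stranded RNA, was at 213, 204 and 198 CPM under the scrambled label and at 119, 175 and 196 CPM under the AEBP1 siRNA label, without overlap (edgeR adjusted p = 0.991). AEBP1 siRNA 3 lay just below scrambled 3 for that gene, and 2.9% of all genes tested were lower without overlap. DDX60L, a helicase-like protein, had means of 27.9 and 23.8 CPM. IFI30, a lysosomal thiol reductase, was at 35.7, 32.8 and 12.9 CPM and at 0.345, 12.7 and 14.3 CPM, so that AEBP1 siRNA 1 was far below the rest.

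Genes that answer mainly to interferon gamma were mostly low, and 6 of 9 tested had lower estimates (median -0.095, 0 called). Among them CIITA, the master regulator of class II antigen presentation, had means of 2.08 and 2.86 CPM, GBP3 57.6 and 51.6 CPM and GBP4 3.95 and 3.02 CPM. Of 4 other interferon regulatory factors tested 2 had lower estimates. IRF8 was at 5.94, 5.53 and 5.59 CPM and at 4.86, 3.75 and 5.06 CPM, without overlap, while IRF2 and IRF3 had means of 44.8 and 40.3 CPM and of 80.5 and 90.1 CPM (edgeR adjusted p = 0.991 for each). Negative regulators had lower estimates for 7 of 12, led by the deubiquitinase USP13 at 37.8 and 29.9 CPM. SOCS3 and PTPN1, which damp JAK and STAT signalling, had means of 29.8 and 32.6 CPM and of 281 and 257 CPM. In none of these lists was a gene called by edgeR, and at an unadjusted p under 0.05 each held 0 genes. Of all genes tested 50.6% had lower estimates, and 2.9% were lower without overlap.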

How the data were processed

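RNA was sequenced from 6 libraries of LX-2 cells made from 1 μg of total RNA. The authors deposited raw counts and FPKM per gene, per the file headers. The submitters' processing notes name build hg19. No source used here names the aligner, counting program, annotation, strand setting or filters. Lines without values (17) were left out, and 27 symbols turned into dates were restored by gene ID. No 2 libraries agreed within sampling noise (the lowest chi-square divided by its degrees of freedom was 7.78).

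Counts were filtered with filterByExpr (16250 genes), scaled by trimmed mean of M values and fitted on the labelled group in edgeR 4.0.16 (R 4.3.3). Its quasi-likelihood p-values were adjusted over all genes by the Benjamini-Hochberg method. The procedure was tested on simulated counts with the same dispersion for every gene and no outlying or mislabelled library. That test therefore cannot tell how often real differences would be called in these libraries. Standard errors were derived from the quasi-likelihood F statistic. Members and lists were chosen with earlier results of these data known. The rule named AEBP1, all members (values per library from a mean of 5 CPM), all receptors, kinases and STATs, and up to 3 genes of each other interferon list, of which some are not reported here. Lower members, OASL, IFI44L and RSAD2 among them, and some pathway genes were named in addition after their values were seen. Alternatives were DESeq2 1.42.0, limma 3.58.1 (voom, or log2 of FPKM with a pseudocount of 1 or 0.1), a replicate block, other filters and scaling, and left-out libraries.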

Additional observations from a re-analysis of the deposited data

How the results depend on the processing

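With 0 members called and 23 of 34 lower, every setting but 1 called 0 members. The exception, which lacked replicate 3 of both groups plus AEBP1 siRNA 1, called 1 member and 249 genes, with a member median of -0.43 and an AEBP1 log2 fold change of -0.88, which says nothing of AEBP1 because replicate 3 was left out for its AEBP1 level. The median was -0.28 without replicate 3 of both groups. Leaving out single libraries gave medians of -0.22 to -0.051, 0 to 2 genes called and 20 to 33 members lower. Against 1 gene called, no filter gave 3, DESeq2 6, limma-voom 2 and log2(FPKM + 0.1) 3. The replicate block gave 2 genes and 0 members, with 22 members lower. Same-numbered libraries showed no pairing, their deviations from group means correlating at 0.18, 0.0027 and -0.13.

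Some members, most with estimates near 0 but MX2 with -0.32, changed sign, for which the cause was not tested. Leaving out single libraries, log2 fold changes ran from -0.139 to 0.219 for BST2, -0.0193 to 0.283 for IFI35, -0.231 to 0.298 for IFI6, -0.0774 to 0.0085 for IFIT5, -0.138 to 0.23 for IFITM1, -0.123 to 0.241 for IFITM2, -0.0157 to 0.272 for IFITM3, -0.217 to 0.0194 for IRF1, -0.0492 to 0.115 for IRF7, -0.22 to 0.712 for IRF9, -0.118 to 0.319 for ISG15, -0.0535 to 0.195 for ISG20, -0.508 to 0.0281 for MX2 and -0.185 to 0.0971 for USP18. Without replicate 3 of both groups IFITM1 and IFITM2 were at -0.10 and -0.18. With AEBP1 siRNA 1 left out too, values were -0.26 for BST2, -0.025 for IFI35, -0.41 for IFI6, -0.47 for IFITM1, -0.39 for IFITM2, -0.15 for IFITM3, -0.072 for IRF7, -0.36 for ISG15, -0.21 for ISG20 and 0.0041 for STAT2. On log2(FPKM + 1) and log2(FPKM + 0.1) IFITM2 was at -0.019 and -0.018 and ISG20 at -0.044 and -0.063. Without scrambled 1, IFIT1, IFIT2, TRIM22 and XAF1 were at -0.15, -0.093, -0.16 and -0.075, and without AEBP1 siRNA 2, IFI44 was at -0.048. With 3 libraries per group an exact test of a single value cannot go below p = 0.1.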
